A study of Homo sapiens with 3 samples.

Results

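CRY1, a cryptochrome of the circadian clock, was mapped on chromatin in C4-2 cells, and 335 of its 2500 peak summits on chromosomes 1 to 22 lay more than 10 kb from every annotated transcription start site (TSS). They made up 13.4% of the summits (Wilson 95% interval 12.1 to 14.8%), and the whole deposited list held 2551 peaks. The distance was taken from the summit, the base of highest read pileup in a peak, to the nearest TSS of any GENCODE transcript, so neither motif, gene class nor peak strength entered the choice of these distal summits. The 3 libraries came from C4-2, an established human castration-resistant prostate cancer line. All 3 libraries were titled as vehicle (Veh) and came from cells kept in hormone-proficient medium. Of the libraries, 2 were replicate CRY1 immunoprecipitates and 1 was input chromatin. The authors called 1 peak list on the replicates combined, so no value below has a replicate error, peaks are not replicates of each other, and read depth is unknown. All intervals and p-values cover the counting of peaks in this list only.

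Vertebrate cryptochromes act in the clock as transcriptional repressors. They are not known for reading a DNA sequence by themselves, and reach DNA through the CLOCK and BMAL1 heterodimer, a pair of basic helix-loop-helix activators that binds the E-box. Promoter-distal elements are in many tissues bound by lineage factors. In prostate cells these include the forkhead protein FOXA1, and AP-1 and CTCF are common occupants of enhancers and of insulators. The questions addressed here were whether distal CRY1 summits hold the E-box as summits near a TSS do, which other motifs they hold, and whether intronic and intergenic summits differ.

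The following windows of 50 bp on each side of a summit, 101 bp in all, were chosen because they show the range of sequence at distal summits. They are plus-strand sequence of GRCh37 (hg19), 5′ to 3′, named by the nearest protein-coding gene. Capitals mark the matched motif named on each line, and a match is a description of letters and not a bound site. The first group holds the E-box, CACGTG.
RBX1, chr22:41418625-41418725, intergenic, 2 E-boxes: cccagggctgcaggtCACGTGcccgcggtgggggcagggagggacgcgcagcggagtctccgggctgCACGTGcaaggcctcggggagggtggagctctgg
PRDM1, chr6:106517472-106517572, intronic, 2 E-boxes: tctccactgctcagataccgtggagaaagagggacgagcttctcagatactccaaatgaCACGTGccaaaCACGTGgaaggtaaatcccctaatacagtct
TGFB2, chr1:218959455-218959555, intergenic, 2 E-boxes with a forkhead match that shares letters with the first: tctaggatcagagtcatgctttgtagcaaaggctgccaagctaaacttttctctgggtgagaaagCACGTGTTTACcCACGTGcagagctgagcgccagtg
RXRA, chr9:137252933-137253033, intronic, an E-box and an AP-1 match: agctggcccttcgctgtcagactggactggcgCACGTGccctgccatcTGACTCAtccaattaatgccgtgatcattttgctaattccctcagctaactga
MAGI1, chr3:66039506-66039606, intergenic, 1 E-box: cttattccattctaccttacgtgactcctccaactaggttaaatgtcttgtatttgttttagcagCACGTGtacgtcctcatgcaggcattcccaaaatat
ABLIM1, chr10:116463585-116463685, intronic, a CTCF match, an E′-box and an E-box in this order: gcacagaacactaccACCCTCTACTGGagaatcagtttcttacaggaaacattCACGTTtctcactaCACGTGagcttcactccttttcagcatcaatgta
The next group lacks the E-box and shows the strongest distal summit of all, a summit with the related E′-box CACGTT on each strand, one with no motif of the family, and one with an androgen response element (ARE).
ITPR2, chr12:26676885-26676985, intronic, no motif of the family: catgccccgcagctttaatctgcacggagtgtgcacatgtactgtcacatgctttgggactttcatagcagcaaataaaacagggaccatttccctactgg
PTPRN2, chr7:157703409-157703509, intronic, 2 E′-boxes: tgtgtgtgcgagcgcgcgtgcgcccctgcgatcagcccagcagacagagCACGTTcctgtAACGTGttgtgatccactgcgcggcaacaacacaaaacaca
SCPEP1, chr17:55110820-55110920, intergenic, no motif of the family: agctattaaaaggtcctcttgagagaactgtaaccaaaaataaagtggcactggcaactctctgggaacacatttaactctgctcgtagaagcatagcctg
TTLL11, chr9:124644568-124644668, intronic, an ARE: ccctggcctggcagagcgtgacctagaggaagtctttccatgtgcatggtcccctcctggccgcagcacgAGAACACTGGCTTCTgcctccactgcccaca

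More distal CRY1 summits lay inside genes than between them. The share of all sequence over 10 kb from a TSS that lies inside genes was not measured, so no preference is read from these counts. Introns held 191 of the 335 (57.0%, Wilson 51.7 to 62.2%) and intergenic sequence held 126 (37.6%, 32.6 to 42.9%). Of the remainder, 8 lay in 3′ UTRs, 6 at transcript ends and 4 in exons. Introns of protein-coding genes accounted for 159 of the intronic summits, and 32 lay in introns of other annotated genes only. The median distance to the nearest TSS was 20149 bp (quartiles 14276 and 34748), and 7 summits lay more than 100 kb away, the farthest at 248961 bp. The 3 members closest to the limit lay at 10034, 10065 and 10084 bp with fold enrichments of 3.25, 5.06 and 3.06. The 3 summits just outside it lay at 9936, 9936 and 9905 bp with fold enrichments of 5.83, 5.32 and 6.19.

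Most distal summits had no other distal summit within 10 kb. They formed 294 loci when summits within 10 kb of each other were joined, of which 256 held 1 summit, 35 held 2 and 3 held 3. Another summit lay within 10 kb for 82 of them (24.5%), against 921 (42.5%) of the summits closer to a TSS. Within 10 kb of a summit that was not distal lay 9 of the distal summits (2.69%). The rule keeps distal summits over 10 kb from each TSS, and 1640 of the 2165 other summits lay within 1 kb of one. Both shares are therefore partly set by the rule and are not read as a trait of distal binding. Chromosome 7 held 36, the most per megabase (0.226), and chromosome 4 held the fewest per megabase (0.0262). Chromosome 7 held 180 summits of any distance. As a share of a chromosome's summits, distal ones were most frequent on chromosome 2 (21.1%) and least frequent on chromosome 20 (6.94%). No distal preference for a chromosome is read from the counts per megabase. Few summits fell in sequence that cannot be placed by reads. In 309 windows (92.2%) no 32-base stretch occurred elsewhere in the genome, and in 8 (2.39%) more than 50% of such stretches did, against 65 of 2165 (3.0%) for the other summits.

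Distal summits had a median strength close to that of the rest. Fold enrichment, the authors' ratio of pileup at the summit to the local background, had a median of 5.14 at distal summits (quartiles 4.40 and 6.68, range 2.86 to 17.7). It had a median of 5.12 at the 525 summits 1 to 10 kb from a TSS and 5.24 at the 1640 within 1 kb. The median of all summits was 5.18, and 157 of 335 distal summits (46.9%) exceeded it against 1085 of 2165 others (50.1%). This difference did not pass Fisher's exact test (two-sided, odds ratio 0.878, 95% interval 0.692 to 1.11, p = 0.291). The direction turned with the distance limit, to an odds ratio of 1.10 at 25 kb (Fisher's exact test, p = 0.654) and 1.75 at 50 kb (p = 0.0746). With only the strongest summit of each stretch counted, distal summits exceeded the median less often, with an odds ratio of 0.716 (Fisher's exact test, p = 0.00925). This choice drops weaker neighbours, which the groups hold unequally. Another summit lay within 10 kb for 24.5% of distal and 42.5% of nearer summits. The part of this in the odds ratio was not tested. At a fold enrichment of 8 or more stood 40 distal summits (11.9%) and 321 of the others (14.8%). The deposited −log10 q had a median of 5.50 at distal summits (range 1.64 to 76.6), and peak width had a median of 177 bp (range 83 to 2341).

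Intronic and intergenic summits overlapped in strength over nearly their whole range. Fold enrichment had a median of 5.06 in introns (quartiles 4.44 and 6.36, range 3.05 to 17.7) and 5.44 between genes (4.44 and 6.86, 3.24 to 15.6). The distal median was exceeded by 92 of 191 intronic (48.2%) and 70 of 126 intergenic summits (55.6%), a difference that did not pass Fisher's exact test (odds ratio 0.743, 0.461 to 1.20, p = 0.208). Median width was 160 bp in introns and 216 bp between genes.

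**Figure D1:**
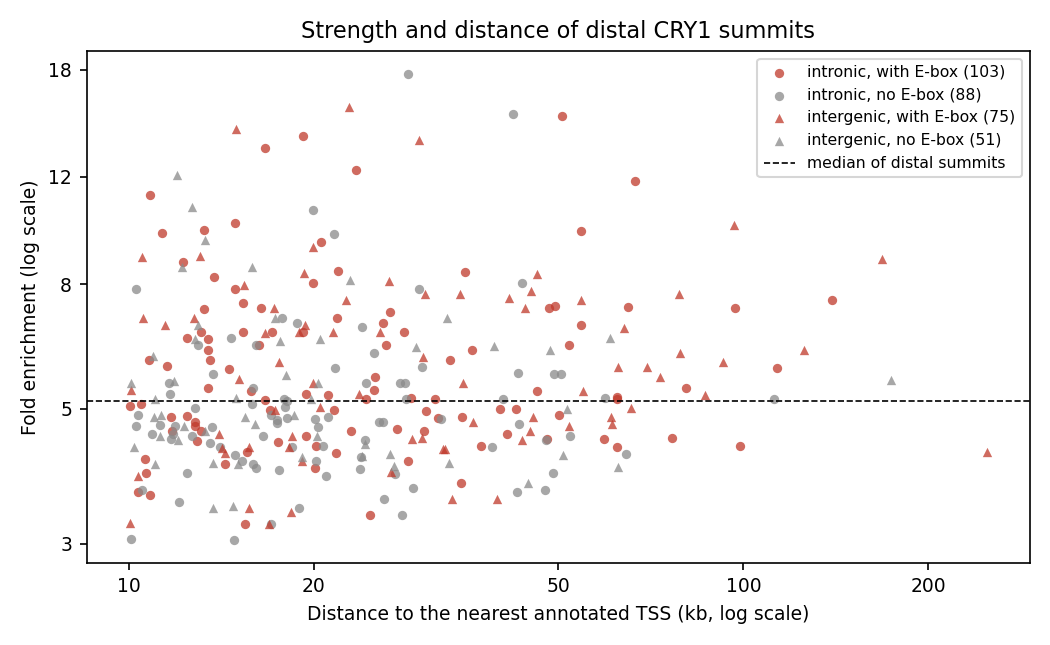
Each point is a distal intronic (circle) or intergenic (triangle) CRY1 summit, placed by its distance to the nearest TSS (x, kb, log scale) and its fold enrichment (y, log scale), with summits that hold an E-box in red, the others in grey and the distal median of 5.14 dashed. The strongest summits, up to 17.7, lie at many distances, and grey points are more common below the dashed line than above it.

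The E-box was the leading motif of distal summits. It lay within 50 bp of 187 of 335 (55.8%, Wilson 50.5 to 61.0%), beside 47.7% of all summits on these chromosomes. Among the 2165 summits within 10 kb of a TSS the share was 46.5%, and the difference passed Fisher's exact test (odds ratio 1.46, 1.15 to 1.85, p adjusted by Benjamini-Hochberg over 8 motifs = 0.00399). The difference was one from TSS-proximal summits. Against the 44.3% within 1 kb the odds ratio was 1.59 (Fisher's exact test, adjusted p = 3.13e-04), whereas against the 53.3% at 1 to 10 kb it was 1.11 (0.832 to 1.47, adjusted p = 0.989). Among peaks with a fold enrichment of at least 5 the odds ratio against all nearer summits was 1.39 and no longer passed (Fisher's exact test, adjusted p = 0.119). Distal windows were poorer in GC (median 51.5% against 66.3%) and in CpG (mean 3.18 against 8.10 per window) than those of the nearer summits, and the part of base composition in the E-box difference was not tested.

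Within the distal set the E-box share was higher farther from a TSS. It was 50% of 204 summits at 10 to 25 kb, 58.8% of 85 at 25 to 50 kb, 76.9% of 39 at 50 to 100 kb and 71.4% of the 7 beyond. Beyond 25 kb 85 of 131 summits (64.9%) held the motif, against 102 of 204 (50%) up to 25 kb (Fisher's exact test, odds ratio 1.85, 1.15 to 2.98, p = 0.00941). This split was chosen after the shares had been seen. With 1 summit per locus the shares were 69.0% and 53.9% (odds ratio 1.90, Fisher's exact p = 0.0108). Forkhead matches lay at 9.92% and 7.84% of the summits beyond and up to 25 kb, which did not pass (odds ratio 1.29, 0.551 to 2.99, Fisher's exact p = 0.553). The median fold enrichment of distal summits was exceeded by 55.7% and 46.1% (odds ratio 1.47, 0.925 to 2.35, Fisher's exact p = 0.0937). The part of strength in the E-box difference was not tested.

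**Figure D2:**
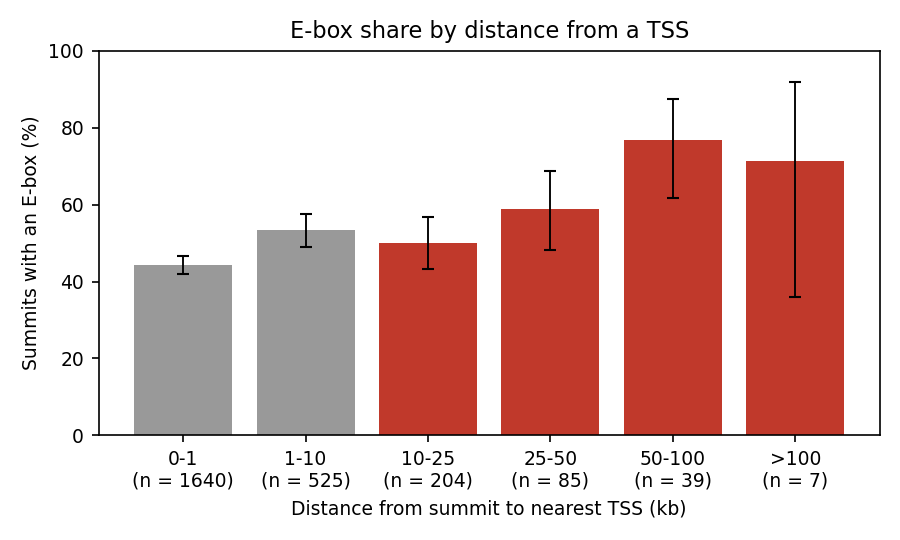
Bars give the percent of CRY1 summits with an E-box within 50 bp, by distance to the nearest TSS in kb, with Wilson 95% intervals of the peak counts; grey bars are summits within 10 kb and red bars are distal. The share is 44.3% within 1 kb of a TSS, 53.3% at 1 to 10 kb, 50% at 10 to 25 kb, 58.8% at 25 to 50 kb and 76.9% at 50 to 100 kb, and the last bar rests on 7 summits.

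The E-box sat at the summit itself. In the windows centred 1000 bp to the left and right of distal summits it was found in 1.49% and 1.19%, against 55.8% at the summit (exact McNemar test, adjusted p = 5.40e-48 and 1.21e-52). Where a summit had an E-box, the nearest one was centred a median of 17.5 bp away (quartiles 8.0 and 26.5), and for 111 of 187 (59.4%) it lay within 20 bp. The median distance was 18.5 bp in introns, 17.5 bp between genes and 18.5 bp within 1 kb of a TSS. The whole peak interval held an E-box in 214 of 335 cases (63.9%), and 262 (78.2%) had one within 500 bp.

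**Figure D3:**
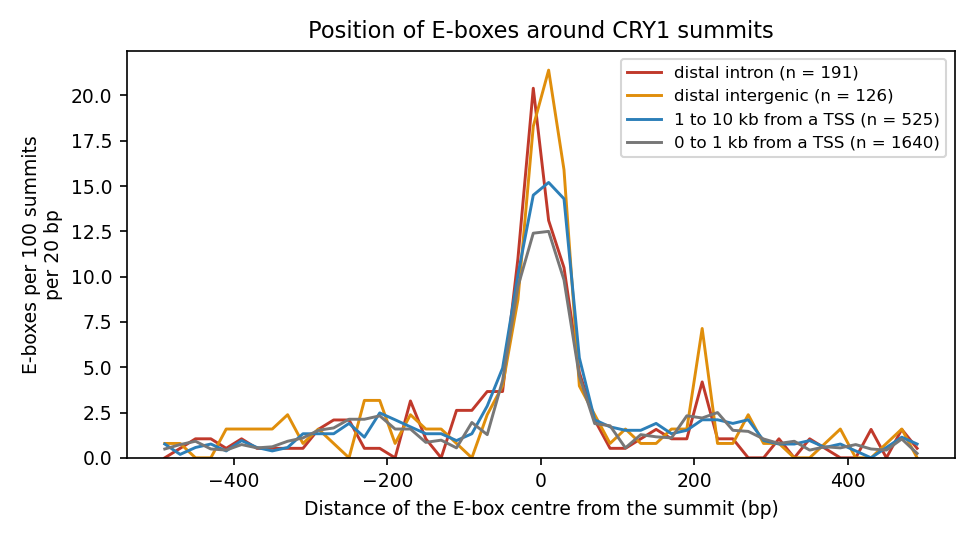
Lines give E-boxes per 100 summits in 20-bp bins (y) against the distance of the E-box centre from the summit in bp (x) for distal intronic, distal intergenic and 2 nearer groups of summits. All 4 profiles peak at the summit, and both distal lines rise again 200 to 220 bp to the right.

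The E-box occurred with varied neighbouring bases. Of the 211 distal E-boxes, 38 (18%) read ACACGTGC or its reverse complement, 29 each (13.7%) read ACACGTGA and CCACGTGA, and 28 (13.3%) read CCACGTGC. Of the octamers that read the same on both strands, GCACGTGC made up 19 (9.0%), ACACGTGT 17 (8.06%), CCACGTGG 9 (4.27%) and TCACGTGA 3 (1.42%). At the nearer summits CCACGTGC led with 18.4% of 1098, and ACACGTGC made up 13.8%; these shares were not tested. A second E-box was present at 23 distal summits (6.87%) and 94 others (4.34%), a difference that did not pass Fisher's exact test (odds ratio 1.62, p = 0.0507). The 24 pairs were separated by a median of 19 bp (range 2 to 67). A spacing of 6 or 7 bp is known from tandem E-boxes of clock genes. An E-box had this spacing from another E-box or an E′-box at 2 distal summits (0.597%), against 7 (0.323%) of the others.

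Strength and the E-box went together among distal summits. Summits with the motif had a median fold enrichment of 5.37 (quartiles 4.55 and 7.30), and those without had 4.81 (4.2 and 5.69). The distal median was exceeded by 109 of 187 (58.3%) and 58 of 148 (39.2%), which passed Fisher's exact test (odds ratio 2.17, 1.36 to 3.45, p = 6.35e-04). With the summits ordered by strength in 5 groups of 67, weakest first, the E-box share was 38.8%, 49.3%, 58.2%, 56.7% and 76.1%. Median fold enrichment was 5.35 at the 164 summits with 1 E-box and 6.47 at the 22 with 2. The 1 summit with 3 or more had a fold enrichment of 4.60. At a fold enrichment of 8 or more 28 of 40 summits (70.0%) had an E-box at the summit and 33 (82.5%) had one somewhere in the peak. Peak width moved with the motif as well, at a median of 206 bp with an E-box and 148 bp without.

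The E-box share was also taken by how summits were grouped, as a description without a test. It lay at 161 of 256 lone summits (62.9%), at 15 of 38 that were the strongest of their locus (39.5%) and at 11 of 41 weaker neighbours (26.8%).

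Of the other motifs, forkhead and E′-box matches were concentrated at distal summits relative to both flanks. Forkhead matches (TGTTTAC or TATTTAC on either strand) lay at 29 summits (8.66%), beside 3.56% of all summits, and in 3.28% and 2.99% of the left and right flanks (exact McNemar test, adjusted p = 0.0126 and 0.0103). The E′-box lay at 7.46% of distal summits, beside 6.56% of all summits, and in 2.99% and 0.597% of the flanks (exact McNemar test, adjusted p = 0.0381 and 3.01e-05). At summits 1 to 10 kb from a TSS forkhead matches lay at 4.57%, against 1.90% of their flank windows. The E′-box there lay at 7.43%, against 1.62%. Within 1 kb of a TSS the shares were 2.20% against 2.44% for forkhead matches and 6.10% against 2.38% for the E′-box. The nearer summits were not tested against their flanks for these motifs, and neither concentration is read as particular to the distal set. The forkhead and E′-box calls at distal summits were less firm than that of the E-box. The forkhead call was lost with flanks 500 bp away, with peak midpoints and with 25-bp windows, and the E′-box call was lost with 1 summit per stretch, without repeated windows and with 25-bp windows. AP-1 sites (TGACTCA or its reverse complement TGAGTCA) lay at 13 summits (3.88%), beside 2.24% of all summits, and passed against the left flank only (0.597% and 2.09%, exact McNemar test, adjusted p = 0.0197 and 0.346). The CTCF core, searched by its consensus with up to 1 mismatch, lay at 10 (2.99%), beside 2.40% of all summits, and in 0.896% of each flank, which did not pass (exact McNemar test, adjusted p = 0.164 on both sides). With windows of 100 bp on each side CTCF passed against both flanks as well.

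The ARE was found at few distal summits. It was searched as AGAACA, 3 free bases and TGTTCT with up to 2 mismatches, and matched at 2 distal summits (0.597%), beside 0.240% of all summits. One lay in an intron of TTLL11, a tubulin polyglutamylase (fold enrichment 5.21), and one in an intron of the zinc finger gene ZNF536 (5.17). The promoter motifs were rare. GC boxes (GGGCGG), which Sp1 family factors bind, lay at 12 distal summits (3.58%), beside 27.3% of all summits, and ETS sites (CCGGAAG) lay at 4 (1.19%), beside 2.96%. None of the 8 motifs was found at 99 distal summits (29.6%).

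**Figure D4:**
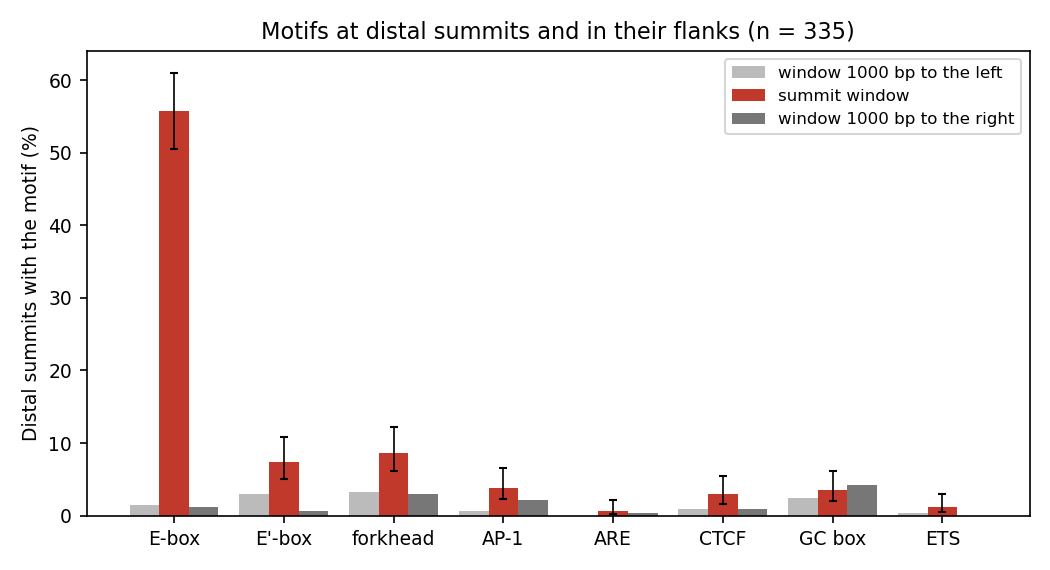
Bars give the percent of the 335 distal summits with each motif in the summit window (red, with Wilson 95% intervals) and in windows centred 1000 bp to the left and right (greys). The E-box stands at 55.8% against 1.49% and 1.19%, and each other motif stays below 10% in every window.

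Against the 2165 nearer summits, forkhead matches were more frequent and GC boxes less frequent at distal summits. Forkhead matches lay at 2.77% of the nearer summits (Fisher's exact test, odds ratio 3.32, 2.02 to 5.35, adjusted p = 6.67e-06) and GC boxes at 31.0% (odds ratio 0.0827, adjusted p = 1.14e-32). AP-1 sites at 1.99% of the nearer summits did not pass after adjustment (Fisher's exact test, adjusted p = 0.0703), nor did CTCF at 2.31% (0.477), the E′-box at 6.42% (0.477) or the ARE at 0.185% (0.249). Against summits 1 to 10 kb from a TSS, where mean GC content was 55.9%, the forkhead share of 4.57% gave an odds ratio of 1.98 (1.09 to 3.62) that did not pass after adjustment (Fisher's exact test, adjusted p = 0.0777). GC boxes at 10.1% of that group did (odds ratio 0.331, Fisher's exact test, adjusted p = 0.00248). Within 1 kb of a TSS AP-1 sites were at 1.52% (odds ratio 2.61, Fisher's exact test, adjusted p = 0.0136) and ETS sites at 3.96% (odds ratio 0.293, adjusted p = 0.0136). AREs were at 0 of 1640 there, which allows a share of up to 0.183% (3 counts of the total; Wilson upper limit 0.234%). Against it the 2 distal matches gave an adjusted p = 0.0383 by Fisher's exact test, but the 95% interval of the odds ratio began at 0.921 and no difference is read from so few matches. Base composition moved with these differences. Mean GC content was 52.1% at distal summits and 64.6% at the nearer ones. In the flanks forkhead matches were found in 3.13% of distal and 2.31% of nearer windows, where mean GC was 47.0% and 46.6% (left and right) and 52.3% and 52.6%. GC boxes were found in 3.28% of distal and 10.7% of nearer flank windows, beside 3.58% and 31.0% at the summits. At distal summits they did not pass against either flank (exact McNemar test, adjusted p = 0.575 and 0.895). The part of base composition in the forkhead and GC box differences was not tested.

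Forkhead matches were not confined to summits without an E-box. They lay at 8.78% of the 148 summits without the E-box and 8.56% of the 187 with it (odds ratio 1.03, 0.439 to 2.37), and the corresponding shares were 4.05% and 3.74% for AP-1 and 2.70% and 3.21% for CTCF. None of 6 motifs passed Fisher's exact test in this comparison, and the raw p missed 0.05 for each. At 2 of the 29 forkhead summits every match shared letters with an E-box. The 29 had fold enrichments from 3.05 to 10 (median 5.41), with 16 in introns and 12 between genes. The strongest was the intergenic summit 352 kb from TGFB2, a growth factor gene, printed above. Others lay between genes 51.1 kb from FOXO3 (7.31), itself a forkhead gene, and in an intron of OTX2-AS1, 37.9 kb from the homeobox gene OTX2 (7.86).

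No test separated intronic from intergenic summits by their motifs. The E-box was at 103 of 191 intronic (53.9%) and 75 of 126 intergenic summits (59.5%), with an odds ratio of 0.796 (0.491 to 1.29, Fisher's exact test, adjusted p = 1.00). Forkhead matches were at 8.38% and 9.52% (odds ratio 0.869, 0.370 to 2.09), AP-1 sites at 3.66% and 3.97% (0.921, 0.245 to 3.77) and CTCF at 2.62% and 3.17% (0.820, 0.173 to 4.22). Both ARE matches were intronic, and 0 of 126 intergenic summits had one, which allows a share of up to 2.38% (3 counts of the total; Wilson upper limit 2.96%). None of the 8 motifs had a raw p under 0.05 by Fisher's exact test. The intervals are wide for every motif but the E-box, so differences of several fold in the rarer motifs were not detectable with these numbers.

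The strongest intronic locus was in ITPR2, which encodes an inositol trisphosphate receptor that releases calcium from the endoplasmic reticulum. Its summit (chr12:26676318-26677617, intron 37 of 56) reached the highest fold enrichment (17.7) and −log10 q (76.6) of all distal summits, and no E-box within 50 bp. The nearest E-box lay 160 bp away. The PTPRN2 summit (chr7:157702983-157704191, intron 11 of 22), in a gene for a phosphatase-like protein of secretory vesicles, reached 15.2 with 2 E′-boxes at the summit and an E-box 61.5 bp away. The next 6 intronic loci each had an E-box at the summit. They were at 15.1 in ENSG00000254645 (307 kb from SOX6), 14.0 in ZFPM1, a cofactor of GATA factors, and 13.4 in an intron annotated to both PRDM1, a transcriptional repressor gene, and the autophagy gene ATG5. They continued with 12.3 in EEFSEC, the selenocysteine elongation factor gene, 11.8 in TRABD2B, whose product inactivates Wnt proteins, and 11.2 in intron 1 of 9 of RXRA, the retinoid X receptor alpha gene.

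Between genes the E-box was at 5 of the 8 strongest loci. The summit 56.5 kb from RBX1 (chr22:41417906-41419160), which encodes the RING subunit of cullin ubiquitin ligases, had a fold enrichment of 15.6 and 2 E-boxes. It was followed by summits 15 kb upstream of MAGI1, a junctional scaffold gene (14.4), and 30.9 kb upstream of TH, which encodes tyrosine hydroxylase, the rate-limiting enzyme of catecholamine synthesis (13.8). The summits nearest SCPEP1 (12.1, 35.2 kb) and RMI2 (10.7, 19.6 kb), a partner of the BLM helicase, had no E-box within 500 bp. The summits near TGFB2 (10, 352 kb), ASCL2, a basic helix-loop-helix factor gene (9.46, 13.3 kb), and AP1M1, a clathrin adaptor gene (9.22, 20 kb), closed the list. The ASCL2 summit had a GC box, and its nearest E-box was 262 bp away. At none of these 16 loci did the nearest protein-coding gene also have a promoter summit. Among the nearest genes of all distal summits that share was 11.7%, and no difference is read from 16 loci.

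**Figure D5:**
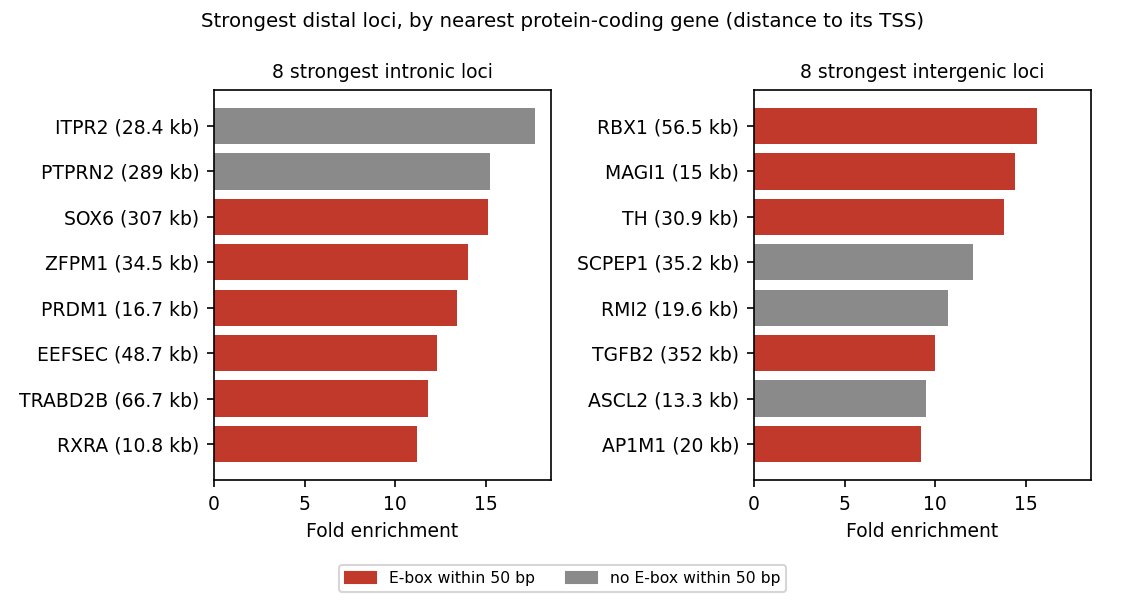
Bars give the fold enrichment (x, from 0) of the 8 strongest intronic and the 8 strongest intergenic distal loci, each named by its nearest protein-coding gene with the distance to that gene's TSS, in red where an E-box lies within 50 bp of the summit. ITPR2 at 17.7 and RBX1 at 15.6 lead the panels, and 5 of the 16 bars are grey.

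Some genes were the nearest protein-coding gene to several distal summits, though not always close to them. RXRA was the nearest protein-coding gene to 6 summits in 3 loci spread over 192 kb, with fold enrichments from 4.44 to 11.2 and an E-box at 3 of them. The 3 summits in its first intron had fold enrichments of 8.70, 5.28 and 11.2, and the middle one had no E-box. EEFSEC had 4 (4.17 to 12.3), as did SHH, a developmental ligand gene (4.01 to 7.04), and GSE1 (4.0 to 6.18, with 0 E-boxes). ABLIM1, GRIK4, IFRD1, ITPR2 and PTPRN2 had 3 each. The strongest CTCF match lay in ABLIM1, an actin-binding LIM protein gene, at a summit of 9.82 that also held an E-box and an E′-box, as printed above.

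The 335 summits had 282 different nearest protein-coding genes, 1.47% of the 19229 on these chromosomes. Nearness assigns a name and does not show regulation. The median distance to a protein-coding TSS was 31.7 kb. A promoter summit, defined as one from 1 kb upstream to 100 bp downstream of a TSS, was present at 33 of the 282 genes (11.7%, Wilson 8.46 to 16.0%), beside 5.88% of all protein-coding genes. Of the 159 summits in introns of protein-coding genes, 145 (91.2%) had their host gene as the nearest protein-coding gene. Of the 175 distal summits of any class within a protein-coding gene body, 143 could be placed in an intron of the canonical transcript. Among these 143, 33 (23.1%) lay in the first intron and 22 (15.4%) in the second, in genes with a median of 13.0 introns. Of the 126 intergenic summits, 69 (54.8%) lay on the upstream side of the nearest TSS.

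The gene lists were too short for a share to be set firmly against the 1.47% of all protein-coding genes that were nearest to a distal summit, and their counts are given as a description. Of 25 clock genes only HLF, a PAR bZIP factor of the clock's output, was nearest to one (4.0%). That summit (chr17:53314327-53316667) lay 26.5 kb upstream, in the widest distal peak (2341 bp), held 1 E-box and was enriched 8.09-fold at a −log10 q of 46.2, and HLF also had a promoter summit. Of 30 androgen-regulated genes MAF and NDRG1 were nearest to one each (6.67%). The MAF summit, 287 kb away, had a fold enrichment of 6.53 and an AP-1 site. The NDRG1 summit, in an intron of CCN4 at 24.7 kb, had a fold enrichment of 4.85 and no motif of the family, and NDRG1 had a promoter summit. None of 19 prostate lineage and steroid receptor factor genes, 21 DNA repair genes or 25 cell cycle genes was the nearest gene or host of a distal summit.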

How the data were processed

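CRY1 ChIP-seq in C4-2 cells was analysed from 1 deposited peak list. Per the study's methods, sheared chromatin was immunoprecipitated, sequenced and aligned to hg19 with bowtie2 at default settings, and the authors called peaks with MACS2 on the combined replicates (q < 0.05). Duplicate handling and removal of problem regions were not given in the sources used here, and the use of the input as control is presumed. For each peak the authors deposited fold enrichment (a ratio of summit pileup to background) and −log10 q, which were used as given. Multiply mapped reads are placed at one of their sites under default alignment, so repeated sequence was measured from 32-base stretches.

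Summits on chromosomes 1 to 22 were placed on GRCh37 with GENCODE release 44. Classes were assigned in the order transcript end (from 100 bp upstream to 1 kb downstream), 3′ UTR, exon, intron and intergenic, since promoters and 5′ UTRs held 0 distal summits. Either strand could hold a motif, searched up to 50 bp from the summit. The E-box reads the same on both strands, and the E′-box differs from it in its last base. Shares were compared by two-sided Fisher's exact tests and with flanks by exact McNemar tests, adjusted by Benjamini-Hochberg over 8 motifs (16 flank tests, both sides required), at 0.05. Strength was compared as shares above a median. Motif counting was tested on simulated data. Named genes were those of the 8 strongest intronic and intergenic loci, list members, the strongest loci without an E-box or with each motif, genes with 3 or more summits, and summits at the 10 kb limit. OTX2, FOXO3, ZNF536 and the octamers were chosen after their values were seen. The members, motifs and gene lists were chosen with earlier results of these data known. Python 3.11.15, scipy 1.17.1, pandas 2.3.3 and pysam 0.24.0 were used. The alternatives covered distance limit, transcript set, threshold, window, flank, position, repeats and neighbouring summits. One gene of the prostate lineage list is not reported here.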

Additional observations from a re-analysis of the deposited data

How the results depend on the processing

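The list came from pooled libraries of unknown depth, so leaving out a replicate was not possible, and a peak of 1 replicate cannot be told from a shared one. No paired analysis was possible because the columns carry no replicate. The number of distal summits was set by the limit, at 528 (5 kb), 131 (25 kb) and 46 (50 kb), and by the transcripts, at 584 with protein-coding TSS and 609 with 1 canonical transcript per gene. At a fold enrichment of at least 5 it was 180, and the odds ratio of the E-box was 1.39. The odds ratio of strength was 0.822 at 5 kb (p = 0.050, Fisher's exact test, past the threshold), reversed to 1.10 at 25 kb and 1.75 at 50 kb, and was 0.716 with 1 summit per stretch. For strength with and without an E-box it was 1.92 at 25 kb (Fisher's exact p = 0.0997) and 3.56 at 50 kb (0.165), with fewer summits tested. With 25-bp windows 1 motif, the E-box, passed against both flanks in place of 3. No test addressed why these values moved, and this includes the limits of 25 and 50 kb, which leave fewer summits. The E-box odds ratio kept its direction and its side of the threshold in 11 of 12 alternatives (range over all 1.30 to 3.56, exact Fisher adjusted p from 5.10e-05 to 0.119). Intronic and intergenic motifs gave 0 passing motifs in 7 of 7 alternatives, intronic against intergenic strength stayed short of the threshold in 4 of 4, and other motifs with and without the E-box gave 0 in 4 of 4.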

Other observations

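Distal summits without an E-box often held a single-letter relative of it. Among the 148, the variant CACATG (or CATGTG) lay within 50 bp of 35 (23.6%), against 7.43% and 6.08% in the windows 1000 bp to the left and right (exact McNemar test, adjusted over 18 tests of 9 variants, p = 4.18e-04 and 3.80e-04). It was the only one of the 9 variants to pass against both flanks at distal summits. The E′-box at 12.2% passed against the right flank (0 matches) but not the left (4.05%, exact McNemar test, adjusted p = 0.102). CACATG or the E′-box was present at 48 of the 148 (32.4%). Among the 1159 nearer summits without an E-box, CACATG lay at 10.2% and passed against both flanks as well. The flanks there held it at 5.35% and 3.97% (exact McNemar test, adjusted p = 3.31e-05 and 1.31e-08). Its concentration at the summit was therefore not particular to the distal set. The variant CACCTG was the most frequent at nearer summits at 16.1%, against 17.6% at distal summits. There the variant CACGCG lay at 14.3%, against 6.76% at distal summits. These shares of distal and nearer summits were not tested against each other, and GC content differed between them. The ITPR2 window, the strongest of the distal set, held CACATG at 2 places. The variants were examined after the E-box shares had been seen.

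E-boxes were also found at a particular distance from distal summits. Between 200 and 220 bp to the right, 17 E-boxes lay at 17 distal summits, or 5.07 per 100 summits, against 5 at the same distance to the left (1.49 per 100). Over the 38 other bins of 20 bp more than 100 bp from the summit the median was 0.896 per 100 and the highest 2.69. The right-hand bin held 4.19 per 100 in introns and 7.14 per 100 between genes. Nearer summits showed no such difference between the sides, at 2.10 right and 2.48 left per 100 at 1 to 10 kb and 2.20 and 2.32 within 1 kb. On both sides these stood above the medians of their other bins, 0.952 at 1 to 10 kb and 0.915 within 1 kb. Left and right follow the plus strand. Neighbouring distal summits can lie this far apart, as at FARP1 (0.215 kb). The E-box of one may then be counted from the other, which was not tested. Of the 17 summits, 9 had no E-box within 50 bp. The bin was noticed in the profile and no test was made.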
